A study of Mus musculus with 2 samples.

Results

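The nuclear genes of the respiratory chain and ATP synthase were followed in the dissociated hearts of E12.5 mouse embryos. Members were all genes with a symbol starting with Nduf, Uqcr or Atp5, together with Sdha, Sdhb, Sdhc, Sdhd, Cycs and Cyc1, that had at least 30 unique molecular identifiers (UMIs, each a counted transcript copy) over the cells kept. Of 77 gene rows with these symbols among 31053 genes, 76 were members, and the row left out was a second entry named Atp5o with 4 UMIs. The members comprised 7 core subunits, 29 accessory subunits and 8 assembly factors of complex I, Ndufa4 and its relative Ndufa4l2, 4 subunits of complex II, 10 genes of complex III with cytochrome c, 5 subunits of the catalytic F1 part of complex V, 10 of its stalk and membrane part, and Atp5s.

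The control embryos carried the alleles Tbx18-Cre and YFP/+. The mutant embryos carried the same Tbx18-Cre and YFP/+ together with Prmt1 fl/fl, a floxed allele of an arginine methyltransferase gene, so that the Cre driver and the reporter were shared by both groups. Tbx18-Cre is known to act in the epicardium, which covers the heart, and in its descendants, and it also acts in some other cardiac cells. Each genotype was 1 library made with a 10X Genomics droplet kit. The sources used here give neither the number of embryos pooled nor any sorting of cells. With 1 library per genotype there was no replicate check, no p-value is given, and every interval is a 95% interval that covers counting error only.

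Mitochondria pass electrons from NADH through complex I, or from succinate through complex II, to complex III, which hands them by way of cytochrome c to complex IV. The protons pumped on the way drive ATP synthase, complex V. Most subunits are encoded in the nucleus and a small set in mitochondrial DNA, whose transcripts have symbols starting with mt-. Heart muscle is rich in mitochondria, and its reliance on respiration grows during development.

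After filtering, 4100 control cells with a median of 5896.5 UMIs and 4640 mutant cells with a median of 4046 UMIs were kept, and 8 barcodes were kept in both libraries. Cells were assigned to a type where their marker score was at least 1.5 times that of any other marker list. This gave 2052 control and 1623 mutant cardiomyocytes, 662 and 1150 mesenchymal cells, 124 and 213 epicardial cells, 219 and 316 endothelial cells, 203 and 365 erythroid cells, and 84 and 77 immune cells, while 723 and 863 cells stayed without a type. Every marker of a list was detected in the cells gated by it in both libraries, for these 6 types. Transcripts of Prmt1 were at 507.6 counts per 1000000 UMIs (CPM) in control and 309 CPM in mutant epicardial cells, a ratio of 0.609 (interval 0.519 to 0.715), and in cardiomyocytes they were at 613.7 and 721.5 CPM. A 3′ tag counts transcripts whether or not the floxed exons are present, so this level does not measure the deletion itself.

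RefSeq promoter windows, 250 bases before to 50 after an annotated start, were matched by symbol for 62 of the 76 members. Members without a match included Atp5a1, Uqcrc2, Ndufb9, Atp5f1, Cyc1, Ndufa4l2, Ndufa2, Atp5s, Ndufaf6, Uqcrb, Sdhc, Uqcrq and Ndufs1. The letters GCGC, A, any base and GCGC in a row, on either strand, which are part of the site of nuclear respiratory factor 1 (NRF1), a transcription factor of respiratory genes, were in the promoters of 18 members (29.0%), in those of 11.3% of the 10302 genes with at least 30 UMIs, and in 4.60% of all 32851 promoter windows. A shorter NRF1 string, GCATGCGC, which can overlap the first, was searched only after this first count had been seen, because Cycs had no match to the longer one. It was in 12 members (19.4%), 5.97% of the same genes and 2.71% of all windows. AAGATGGC, letters of the site of YY1, were in 10 members (16.1%) against 5.13% of the same genes and 2.75% of all windows, and CCGGAAGT, letters of ETS factor sites, in 4 members (6.45%) against 8.91% and 3.89%. All strings were searched on both strands, were chosen with other values of these data known, and a match describes letters only.

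The 200 bases before the start are shown for 4 members, in GRCm38.p6 and 5′ to 3′ on the gene's strand, with matches to either NRF1 string in capitals. Cycs, Uqcr10 and Atp5g3 are shown as genes of complex III, cytochrome c and complex V with high cardiomyocyte levels. Ndufaf4 is shown as a member with both NRF1 strings before its annotated start. The stretches lie at chr6:50566570-50566769 (minus strand) for Cycs, chr11:4704345-4704544 (minus strand) for Uqcr10, chr4:24897883-24898082 (plus strand) for Ndufaf4 and chr2:73911327-73911526 (minus strand) for Atp5g3.
Cycs: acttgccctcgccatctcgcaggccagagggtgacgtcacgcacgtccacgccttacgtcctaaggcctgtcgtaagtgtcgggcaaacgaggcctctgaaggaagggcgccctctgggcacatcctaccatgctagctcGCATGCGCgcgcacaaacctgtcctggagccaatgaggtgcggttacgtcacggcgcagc
Uqcr10: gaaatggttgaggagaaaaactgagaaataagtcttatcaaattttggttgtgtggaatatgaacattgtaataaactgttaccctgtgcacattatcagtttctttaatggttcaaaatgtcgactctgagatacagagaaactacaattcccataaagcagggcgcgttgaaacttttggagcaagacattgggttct
Ndufaf4: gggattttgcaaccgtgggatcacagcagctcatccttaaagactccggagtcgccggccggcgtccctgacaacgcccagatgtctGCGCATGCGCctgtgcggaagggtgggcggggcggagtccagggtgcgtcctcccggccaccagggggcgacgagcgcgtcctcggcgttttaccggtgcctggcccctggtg
Atp5g3: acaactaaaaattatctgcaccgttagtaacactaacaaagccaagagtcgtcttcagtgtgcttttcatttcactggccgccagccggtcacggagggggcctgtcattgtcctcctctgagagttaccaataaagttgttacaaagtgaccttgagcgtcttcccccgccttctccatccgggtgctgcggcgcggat
Cycs held the shorter string only, 60 bases before the start. Ndufaf4 held the longer string, with the shorter inside it on both strands, 113 bases before. A further match of Ndufaf4 to the shorter string lay 1 base after its start, outside the stretch shown. The stretches of Uqcr10 and Atp5g3 held neither string. Atp5g3 had the longer string 12 bases after its start, outside the stretch shown. Among members with and without the longer string, the median log2 ratio of cardiomyocyte over mesenchymal level was 1.19 and 1.13 in the control and 1.10 and 1.03 in the mutant library. For the shorter string these medians were 1.21 and 1.15, and 1.15 and 1.03. For the YY1 letters they were 0.70 with and 1.19 without in the control, and 0.74 and 1.07 in the mutant, and for the ETS letters 1.21 and 1.16, and 1.22 and 1.04, the former over 4 members.

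Summed over all members, cardiomyocytes gave the highest level of the gated types in both libraries. The members took 91877 CPM of cardiomyocyte UMIs in the control and 87409 CPM in the mutant. The level in mesenchymal cells was 43091 and 41457 CPM. Endothelial cells were at 42995 and 38729 CPM. These neighbours, and epicardial cells at 39568 and 34679 CPM, lay close together and well below the cardiomyocytes. Immune cells had 52340 CPM in the control and 43700 CPM in the mutant. Erythroid cells, in which haemoglobin transcripts took 77.5% and 69.6% of UMIs, had 8543 and 10447 CPM. The barcodes of the control matrix with 1 to 100 UMIs, which hold free RNA, carried 55879 CPM of member transcripts.

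The share of mt- UMIs followed a flatter order. It was 4.27% in control and 3.98% in mutant cardiomyocytes, and 2.86% and 3.22% in mesenchymal cells. Epicardial cells were at 2.50% and 3.32%, endothelial cells at 3.32% and 3.69%, immune cells at 2.71% and 2.23%, and erythroid cells at 0.437% and 0.678%. Cardiomyocytes thus exceeded mesenchymal cells 2.13-fold (2.12 to 2.15) in the summed nuclear members of the control library but 1.49-fold in mt- transcripts. In the mutant library the same ratios were 2.11 (2.10 to 2.12) and 1.24.

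**Figure D1:**
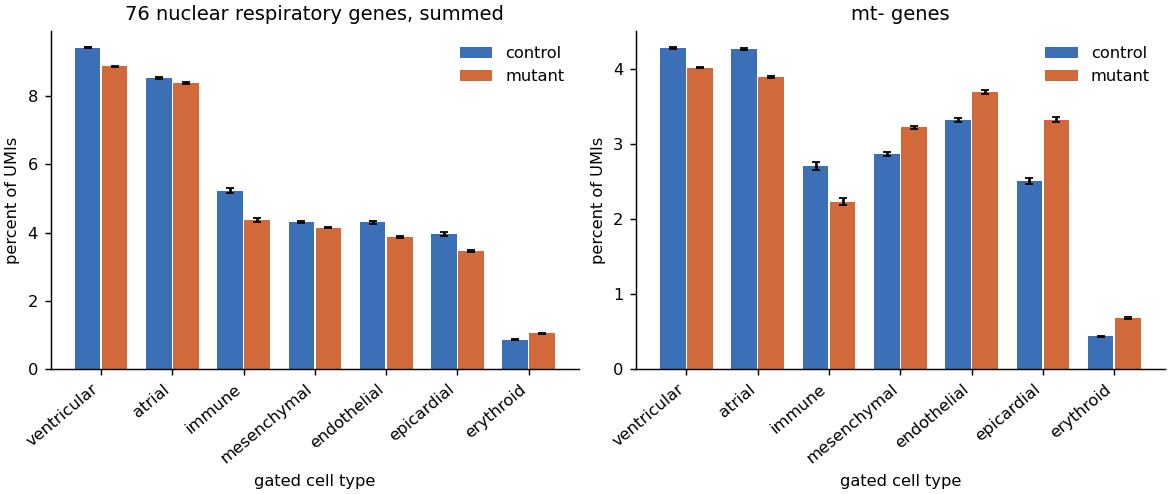
Percent of UMIs from the 76 members (left) and from mt- genes (right) in each gated cell type, control and mutant library side by side, with 95% intervals for counting error. Ventricular and atrial bars stand highest in both panels, and the gap to the other types is wider for the nuclear members.

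Set against mesenchymal cells gene by gene, 61 of 76 members were at least 1.5-fold higher in cardiomyocytes of the control, where 11.6% of all genes tested were, and 63 of 76 in the mutant, where 11.4% were. None was lower by that fold, against 38.1% and 34.7% of all genes. The median log2 ratio, on the log2(CPM + 10) scale used for single genes, was 1.21 and 1.10 over the members and −0.41 and −0.37 over all genes. A ratio of CPM is relative to all transcripts of the cells and does not give the number of molecules per cell.

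Complex III and cytochrome c led. All 10 genes were past 1.5-fold in both libraries, and their summed level was 2.91-fold higher in control and 2.99-fold higher in mutant cardiomyocytes. Uqcrc1, a core protein of complex III, had 604 CPM in control cardiomyocytes and 94.7 CPM in mesenchymal cells, and 595 and 117 CPM in the mutant, ratios of 6.38 (5.46 to 7.50) and 5.08 (4.59 to 5.63). The size of the Uqcrc1 ratio depended on the processing. Over both libraries and all settings run, its log2 value ranged from 0.936 to 2.66. Cycs, which encodes cytochrome c, the soluble carrier between complexes III and IV, had 4133 against 829 CPM in the control and 3763 against 760 CPM in the mutant. Uqcrfs1, the Rieske iron-sulphur subunit, had 1107 against 201 CPM and 1056 against 233 CPM. Uqcrc2, the second core protein, and Cyc1, the cytochrome c1 subunit, had log2 ratios of 2.02 and 1.70 in the control and of 1.90 and 1.79 in the mutant. The small subunits Uqcrh and Uqcrq were the lowest of the group, at 0.97 and 0.78 in the control and 0.90 and 0.92 in the mutant.

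The core subunits of complex I, which carry its redox centres, were all past 1.5-fold, and the sum was 2.53-fold and 2.43-fold higher. Ndufv1, which binds the NADH-oxidising flavin, had 339 CPM in control cardiomyocytes against 73.5 CPM in mesenchymal cells, and 330 against 94.1 CPM in the mutant. The accessory subunits spread more widely. Of the 29, 20 in the control and 22 in the mutant passed 1.5-fold, and the sum was 1.80-fold and 1.76-fold higher. The order of core over accessory sums depended on depth. At 5000 to 10000 UMIs, control ventricular and mesenchymal cells had 3933 and 1242 CPM of core and 36815 and 9909 CPM of accessory subunits. The accessory ratio was larger there. At 10000 to 20000 UMIs the core ratio was larger in the control, with 3792 and 806 CPM against 33350 and 8114 CPM. In the mutant the ratios were alike in the former bin, and the accessory one was larger in the latter. Ndufb8 had 2542 against 781 CPM in the control and 2447 against 830 CPM in the mutant, whereas Ndufa7 was lower in cardiomyocytes, with 1354 against 1680 CPM in the control and 1306 against 1547 CPM in the mutant, ratios of 0.806 (0.776 to 0.837) and 0.844 (0.820 to 0.869). This direction held over cells of all depths only, since with cells of 5000 to 20000 UMIs Ndufa7 was higher in cardiomyocytes, at a log2 ratio of 1.27 and 1.15. Ndufa1, Ndufs5, Ndufa2 and Ndufa6 had log2 ratios of 0.26 to 0.54 in both libraries. Ndufa3 was at −0.01 and 0.16. The assembly factors, which help build complex I without staying in it, had the lowest sum ratio of the complexes, 1.58 and 1.55. Ndufaf5 led them at 1.48 and 1.15, and Ndufaf2 was below 0 at −0.27 and −0.11, but at 0.44 and 0.40 with cells of 5000 to 20000 UMIs. Ndufaf3 and Ndufaf8 were at 0.47 and 0.60 in the control and 0.50 and 0.50 in the mutant. Ndufa4, first assigned to complex I and now counted with complex IV, had 4394 against 2696 CPM in the control and 4273 against 2489 CPM in the mutant.

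Complex II, succinate dehydrogenase, which also belongs to the citric acid cycle, was 2.25-fold and 2.33-fold higher in sum, with all 4 genes past 1.5-fold. Sdhd, a membrane anchor, had 349 against 114 CPM in the control and 360 against 130 CPM in the mutant. Sdhb, the iron-sulphur subunit, had 1929 against 905 CPM and 1816 against 818 CPM. The other anchor Sdhc was at 1.29 and 1.37 on the log2 scale. Sdha, the flavoprotein, had the least, 0.75 and 0.87.

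In complex V, the F1 subunits summed 2.33-fold and 2.27-fold higher. Atp5b, the catalytic beta subunit, had 870 CPM in control cardiomyocytes against 239 CPM in mesenchymal cells, and 862 against 233 CPM in the mutant. Over both libraries and all settings run, the log2 ratio of Atp5b ranged from 0.705 to 2.065. Atp5c1, the gamma subunit, was at 1.59 and 1.48, and Atp5e, the epsilon subunit, at 0.69 and 0.67. The stalk and membrane subunits summed 2.23-fold and 2.19-fold higher, and Atp5g1, which had 3656 against 1075 CPM and 3398 against 936 CPM, was highest of them in both libraries. Atp5o, the oligomycin sensitivity protein, was at 1.29 and 1.32. Atp5s, with 21.9 and 12.4 CPM in the control, was at 0.51 and 0.34.

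**Figure D2:**
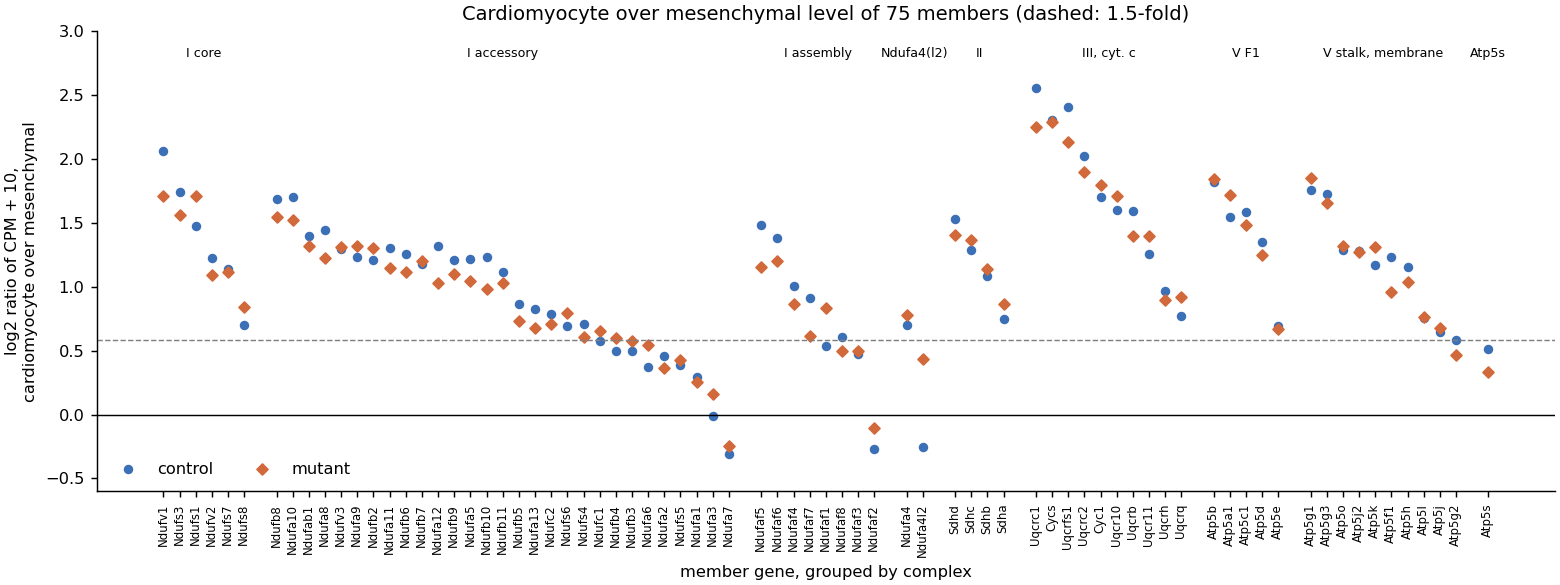
Log2 ratio of cardiomyocyte over mesenchymal level (CPM + 10) of 75 of the 76 members, ordered within complexes, for the control and the mutant library. All genes of complex III and cytochrome c lie above the dashed 1.5-fold line, and with cells of all depths, as plotted, Ndufa7 and Ndufaf2 lie below 0 in both libraries (above 0 with cells of 5000 to 20000 UMIs).

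The other lists of mitochondrial genes, and that of glycolysis in the cytosol, did not share 1 ratio. Of all genes tested, 11.6% in the control and 11.4% in the mutant were higher in cardiomyocytes by 1.5-fold, and 38.1% and 34.7% were lower. The nuclear subunits of complex IV summed 2.30-fold and 2.25-fold higher in cardiomyocytes, with 13 and 12 of 15 higher by 1.5-fold and 2 lower in each library. The citric acid cycle list had all 14 of 14 genes higher, with a sum ratio of 4.4 and 3.91, and glycolysis had 12 higher of 14 measured in the control and of 13 in the mutant. Mitochondrial ribosomal proteins, which make the mt- encoded subunits, summed to only 1.15-fold and 1.16-fold, with 24 higher and 3 lower of 77 measured in each library. Among the 13 mt- genes, 3 passed 1.5-fold in the control and 0 in the mutant. Of the transcription regulators of this pathway, Ppargc1a, a coactivator, had 24.7 and 25.2 CPM in ventricular cardiomyocytes against 8.82 and 6.07 CPM in mesenchymal cells, and its relative Ppargc1b had 16.4 and 15.96 CPM against 1.18 and 2.12 CPM, from 2 and 7 UMIs. Esrra, an orphan nuclear receptor, had 18.6 and 19.5 CPM against 3.53 and 4.86 CPM. Nrf1 itself went the other way, with 8.80 and 8.59 CPM against 14.1 and 16.4 CPM, as did Tfam, a packaging and transcription factor of mitochondrial DNA, with 24.2 and 28.7 CPM against 31.2 and 41.6 CPM. A lower level in cardiomyocytes was common among all genes, of which 38.1% and 34.7% were lower by 1.5-fold. The mesenchymal levels of Esrra and Nrf1 rest on few UMIs.

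Depth per cell moved with these levels. Median depth was 10833 UMIs for control and 12026 for mutant cardiomyocytes, and 1879.5 and 2217 for mesenchymal cells. Within mesenchymal cells of the control, the members took 50349 CPM in the 362 cells with 1000 to 2000 UMIs and 22482 CPM in the 13 cells with 10000 to 20000 UMIs. In the mutant the same bins had 47874 CPM over 463 cells and 22391 CPM over 29 cells. Ventricular cardiomyocytes of the control had 107706 CPM at 5000 to 10000 UMIs and 86750 CPM at 20000 or more. With only cells of 5000 to 20000 UMIs, chosen after seeing the data, the log2 ratio of cardiomyocyte over mesenchymal sum was 2.001 in the control and 1.89 in the mutant, in place of 1.09 and 1.08, but it rested on 36 and 71 mesenchymal cells. Of the genes named by rule, 3 had the opposite direction there: Sdha at −0.24 and −0.014, Ndufa7 at 1.27 and 1.15, and Ndufaf2 at 0.44 and 0.40. Part of the deep mesenchymal cells had genes of their own: cluster 17, led by Postn and Sox9, had a median of 10078.5 and 12984 UMIs, and in it the members took 19946 and 17826 CPM.

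**Figure D3:**
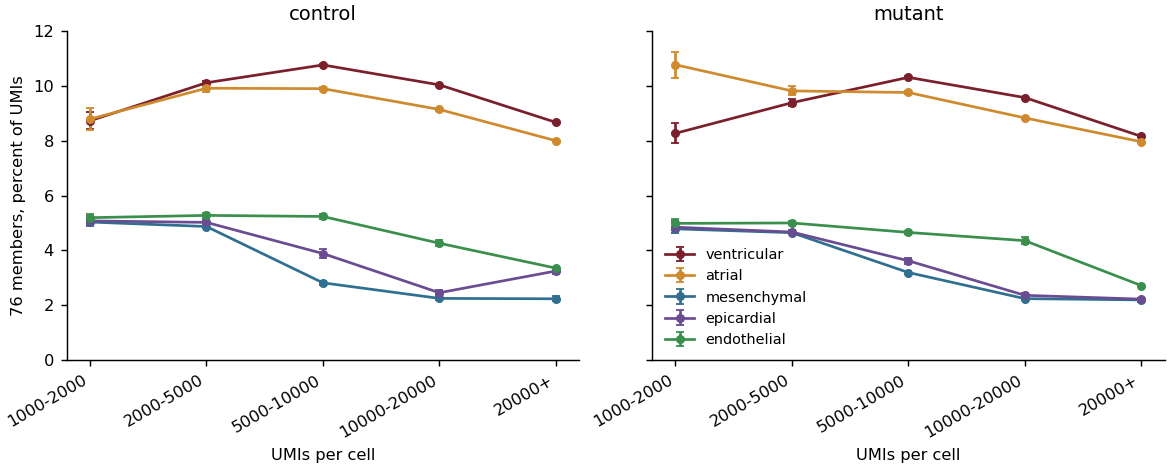
Percent of UMIs from the 76 members (1 percent is 10000 CPM) against UMIs per cell for 5 gated cell types, control left and mutant right, with 95% intervals for counting error. Ventricular and atrial cells stay above the other types in every bin, and control mesenchymal cells lie at 50349 CPM in the shallowest bin and at 22482 CPM at 10000 to 20000 UMIs.

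Against each of the other types most members were also higher in cardiomyocytes, beside shares of all genes that differed between the comparisons. Compared with epicardial cells, 71 of 75 measured members in the control and 70 of 75 in the mutant were at least 1.5-fold higher in cardiomyocytes, where 12.3% and 11.9% of all genes were. Compared with endothelial cells the counts were 66 of 75 and 69 of 76, beside 12.8% and 11.4%. Compared with immune cells they were 55 and 60 of 75, beside 22.1% and 20.3%. Against erythroid cells 75 of 75 were higher in both libraries, but so were 87% and 78.7% of all genes. None was lower by 1.5-fold in these comparisons, beside 40.7% and 39.9% of all genes against epicardial, 32.5% and 37.1% against endothelial, 26.3% and 31.2% against immune and 5.46% and 6.8% against erythroid cells. The erythroid count is therefore close to what genes at large gave. Epicardial and mesenchymal cells were close to each other. In the control 0 members were higher and 4 lower by 1.5-fold in epicardial cells, beside 12.6% and 13.3% of all genes, and in the mutant 2 were higher and 6 lower, beside 14.5% and 10.1%. Between endothelial and mesenchymal cells 2 were higher and 1 lower in the control, beside 11.2% and 15.4%, and 3 and 0 in the mutant, beside 11.8% and 9.41% of all genes.

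Within cardiomyocytes the members were a little lower in atrial than in ventricular cells. The sum was 94249 CPM in 1558 ventricular and 85338 CPM in 481 atrial cells of the control, a ratio of 0.905 (0.903 to 0.908), and 88832 CPM in 1234 and 83842 CPM in 372 cells of the mutant, a ratio of 0.944 (0.941 to 0.947). By 1.5-fold 3 members of the control and 2 of the mutant were lower in atrial cells, where 2.85% and 2.85% of all genes were, and none was higher, where 6.37% and 5.1% were. Cyc1 had 1174 CPM in atrial and 1777 CPM in ventricular cells of the control, and 1192 and 1674 CPM in the mutant. Ndufs6, an accessory subunit, had 472 and 757 CPM in the control and 517 and 747 CPM in the mutant. The assembly factors Ndufaf6 and Ndufaf4 had log2 ratios of −0.64 and −0.58 in the control and −0.62 and −0.65 in the mutant. In the other direction, Ndufa1 was at 0.33 and 0.36 and Ndufb11 at 0.24 and 0.33, so single subunits of complex I differed in opposite directions between the chambers.

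The c ring of ATP synthase is made of 1 protein that 3 genes encode with different import signals, and the use of these genes differed between types. In cardiomyocytes Atp5g1 gave 47.3% of the UMIs of the 3 genes in the control and 45.8% in the mutant, Atp5g2 27.0% and 27.9%, and Atp5g3 25.7% and 26.2%. In mesenchymal cells Atp5g2 led with 45.4% (44.1 to 46.8) and 49.2% (48.2 to 50.1), while Atp5g1 gave 35.1% (33.8 to 36.4) and 30.8% (29.9 to 31.7). Endothelial cells resembled mesenchymal cells, with 42.9% and 46.2% from Atp5g2. Epicardial cells of the control used Atp5g1 and Atp5g2 alike, 41.5% and 41.4%, and those of the mutant gave 35.7% and 44.1%. In levels, Atp5g2 differed least of the 3 between cardiomyocytes and mesenchymal cells, with 2088 CPM in control cardiomyocytes and 1391 CPM in mesenchymal cells, against 1991 and 596 CPM for Atp5g3. Ventricular and atrial cells split alike, with 47.2% and 47.7% from Atp5g1 in the control and 46.1% and 45.2% in the mutant.

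Ndufa4l2, the relative of Ndufa4, had a pattern of its own. It was rare, 942 UMIs over all kept cells. Across 14 pairs of type and library, each member's log2 profile was correlated with the mean log2 profile of the other members. Ndufa4l2 had the lowest correlation of all members (r = 0.40, a description over pairs that share libraries). Atrial cells had 0.358 CPM in the control and 0.713 CPM in the mutant, from 3 UMIs in the control, against 15.1 and 19.1 CPM in ventricular cells. In the control 66.4% of its UMIs, and in the mutant 56.2%, came from cluster 8, a cardiomyocyte cluster led by Rspo3 and Clu that held 5.15% and 3.15% of the kept cells. There it stood at 69.1 CPM (61.4 to 77.5) in the control and 103.6 CPM (91.9 to 116) in the mutant, from 292 and 282 UMIs. Cox4i2, the alternative form of the complex IV subunit Cox4i1, was at 94.1 and 110.6 CPM in the same cluster. In the other cardiomyocyte clusters it was between 1.01 and 13.8 CPM in the control and between 1.79 and 15.5 CPM in the mutant, but mesenchymal cluster 1 had 50.6 and 41.1 CPM, cluster 5 had 49.8 and 28.1 CPM and cluster 7 had 47.2 and 16.6 CPM. The members were left out of the genes used for clustering, but Ndufa4l2 and Cox4i2 are among the leading genes of cluster 8, so this is a description. In mesenchymal cluster 5, with Tcf21 among its leading genes, Ndufa4l2 had 37.9 CPM in the control and 22.0 CPM in the mutant, from 19 and 18 UMIs.

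**Figure D4:**
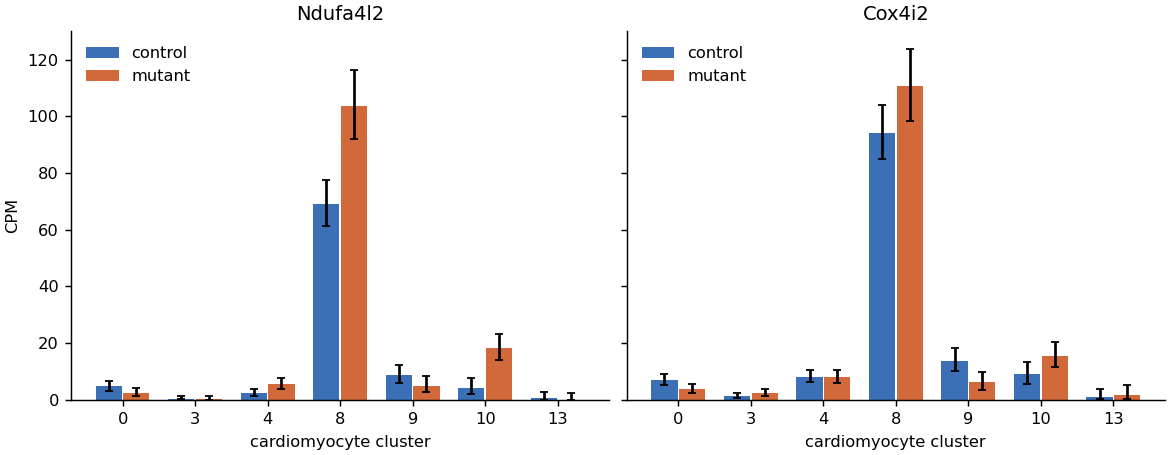
Level in CPM of Ndufa4l2 (left) and Cox4i2 (right) in each cardiomyocyte cluster of the control and the mutant library, with 95% intervals for counting error. Cluster 8 stands above all other cardiomyocyte clusters for both genes in both libraries.

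Clusters of cardiomyocytes also differed in the summed level. Cluster 10, led by Ttn and Sorbs2, had 61477 CPM in the control and 62104 CPM in the mutant with 6.71% and 5.89% mt- UMIs, and cluster 13 had 49194 and 49593 CPM with 5.36% and 5.41%. Cluster 0, led by Myl2, had 108197 and 103714 CPM with 4.03% and 3.71%. Ventricular cells with over 6% mt- UMIs had 73408 member UMIs per 1000000 non-mt UMIs in the control and 66863 in the mutant, against 101999 and 96608 in those with 3% to 4%. The ventricular cells with the highest mt- share thus had a lower level of the nuclear members. The 16 control and 23 mutant ventricular cells with less than 2% were also lower, at 88171 and 83259. The part of RNA quality in these levels was not tested.

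Between the libraries the members differed little in cardiomyocytes and mesenchymal cells. The ratio of mutant over control for the summed members was 0.951 (0.950 to 0.953) in cardiomyocytes, 0.943 (0.941 to 0.944) in ventricular and 0.982 (0.979 to 0.986) in atrial cells, and 0.962 (0.953 to 0.971) in mesenchymal cells. None of the 76 members was past 1.5-fold in cardiomyocytes, where 0.295% of all genes were higher and 0.351% lower, and none in ventricular (0.322% and 0.303%), atrial (0.579% and 0.421%) or mesenchymal cells (1.09% and 1.21%). The sum ratio was 0.876 (0.862 to 0.891) in epicardial and 0.901 (0.891 to 0.910) in endothelial cells, 1.22 (1.20 to 1.24) in erythroid and 0.835 (0.818 to 0.852) in immune cells. Genotype and library cannot be told apart in any of these. The mesenchymal ratio turned with cells of 5000 to 20000 UMIs, from a log2 ratio of −0.06 to 0.051, and the immune one shrank from −0.26 to −0.028 without the cells of the top 6% of doublet scores.

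The mt- transcripts did not move with the nuclear members in every type. Their share was lower in mutant than in control cardiomyocytes, a ratio of 0.933 (0.931 to 0.936), as was the nuclear sum. In mesenchymal cells the mt- ratio was 1.12 (1.11 to 1.14), in epicardial cells 1.33 (1.30 to 1.35) and in endothelial cells 1.11 (1.10 to 1.13), where the nuclear sums were all below 1. With at most 10% mt- UMIs the mesenchymal difference was 0.0005615 percentage points in place of 0.354, and with equal weight per cell the endothelial one was −0.00612 in place of 0.379. The epicardial difference of 0.820 points was 0.404 with equal weight per cell, 0.380 after thinning to 1000 UMIs and 0.181 with Leiden clusters as types.

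Uqcrq, a small subunit of complex III, differed most between libraries in cardiomyocytes on the log2 scale used for single genes. By the plain ratio of CPM the rare Ndufa4l2 differed more, with 11.2 CPM in control and 14.5 CPM in mutant cardiomyocytes. Uqcrq had 2633 CPM in control and 2118 CPM in mutant cardiomyocytes, a ratio of 0.804 (0.796 to 0.813). In mesenchymal cells it had 1534 and 1116 CPM, a ratio of 0.727 (0.691 to 0.765). In epicardial cells it had 1299 and 797 CPM, a ratio of 0.613 (0.556 to 0.677), and in endothelial cells 1562 and 1021 CPM, 0.654 (0.615 to 0.694). In immune cells it had 2148 and 1478 CPM, and in erythroid cells 305 and 311 CPM. Erythroid cells thus had no lower level in the mutant library, with a Uqcrq ratio of 1.02 (0.931 to 1.12). This ratio was still below that of the summed members there, 1.22, whose direction rested on the denominator. Ndufa12, an accessory subunit of complex I, went the other way with 622 and 730 CPM in cardiomyocytes, 243 and 352 CPM in mesenchymal cells and 234 and 276 CPM in epicardial cells, but had 275 and 284 CPM in endothelial and 306 and 304 CPM in immune cells. Sdhc had 164 and 194 CPM in cardiomyocytes, and Ndufa11 a log2 ratio of −0.27. A lower level across types was not particular to Uqcrq. In the 5 types other than erythroid and immune, 18 members were below 0 in every type and 1 was above 0. The interval lay below 1 in all 5 for 6 members and above 1 for 0. The same counts over all genes were not made. Uqcrq, Ndufa12, Sdhc and Ndufa11 were singled out here after their values were seen.

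In epicardial cells, where Tbx18-Cre is known to act, 1 member was higher and 1 lower by 1.5-fold, beside 7.48% and 5.98% of all genes. The lower one was Uqcrq. The higher one was Ndufaf7, an assembly factor that methylates an arginine of complex I, from 6 control and 29 mutant UMIs, with a ratio of 2.38 whose interval (0.971 to 7.01) includes 1. Haemoglobin UMIs were 0.626% of the control and 4.30% of the mutant epicardial cells, and the 13 cardiomyocyte markers summed to 5681 and 6924 CPM, of which Myl7 gave 5049 and 5002 CPM. Taking mt-, haemoglobin and ribosomal UMIs together out of the denominator made the difference of the epicardial sum smaller, as the closing section gives. The part of haemoglobin alone and that of the cardiomyocyte markers were not tested. In endothelial cells Uqcrq and Atp5s, the latter from 26 and 19 UMIs, were lower and none was higher, beside 1.06% and 5.71%.

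In immune cells 5 of 68 measured members were lower and 1 higher, beside 10.1% and 12.1% of all genes. Among those lower, Uqcrc1 had 229 and 138 CPM, Atp5h 1257 and 817 CPM, Ndufa1 354 and 229 CPM, and Ndufs3 264 and 171 CPM. Ndufaf2 was higher, with 77.2 and 135.8 CPM. Cardiomyocyte markers summed to 7630 CPM in control and 993 CPM in mutant immune cells, with Myl7 at 3056 and 251 CPM, and their part in these ratios was not tested. In erythroid cells 6 of 67 measured members were higher and none lower, beside 25.4% and 0.606% of all genes. They were Uqcrc1, Ndufc2, Uqcrfs1, Ndufv1, Ndufs5 and Ndufa10, and Uqcrc1 had 39.0 CPM in the control and 69.7 CPM in the mutant. The direction of the erythroid sum rested on the denominator, since without mt-, haemoglobin and ribosomal UMIs its log2 ratio was −0.13 in place of 0.29.

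**Figure D5:**
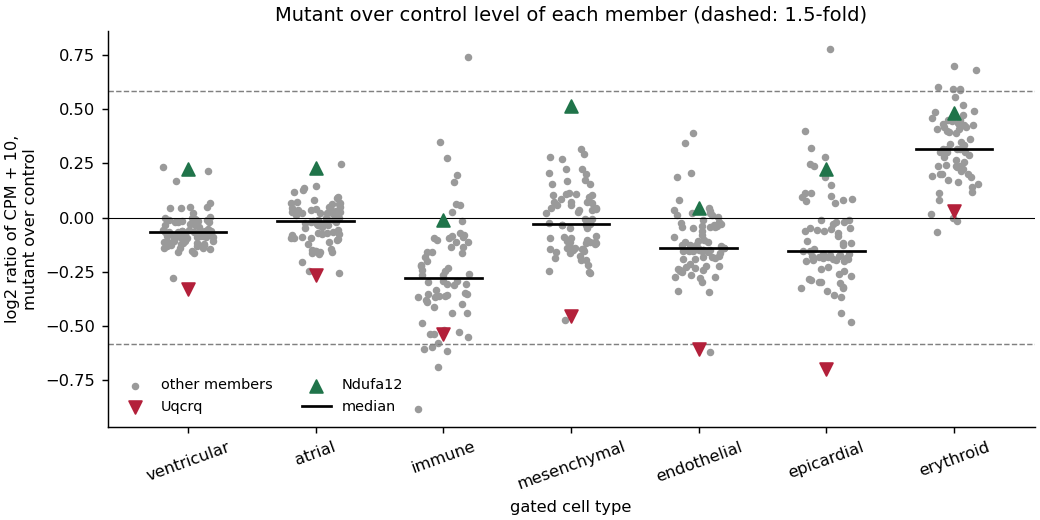
Log2 ratio of mutant over control level (CPM + 10) of each member that passed the minimum in 7 gated cell types, with medians as bars and Uqcrq and Ndufa12 marked. Uqcrq lies below 0 in every type but the erythroid cells, as do other members such as Cycs and Atp5g1. Members of ventricular, atrial and mesenchymal cells stay within 1.5-fold.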

How the data were processed

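Per the labels' protocols, TrypLE was used to dissociate the hearts and libraries were made with the Chromium v2 kit of 10X Genomics. The values, as deposited by the authors, are UMI counts per gene and barcode. Per the file headers, Cell Ranger 3.0.2 made the matrices. Seurat is also named in the submitters' processing notes. The authors' build and gene annotation: not given in the sources used here. Gene positions came from GENCODE M21 (GRCm38), matched by gene ID. The control matrix listed 6794880 barcodes and was unfiltered, the mutant matrix 7181. The control list has the size of the barcode list of a later kit version, and all 7181 mutant barcodes are in it, so the kit version is uncertain. Its part in ratios between libraries was not tested. The libraries held 49323576 and 48527471 UMIs.

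Cells with at least 1000 UMIs, 500 genes and at most 20% mt- UMIs were kept. A cell's score for a marker list was the mean over markers of its UMIs per 10000 divided by that marker's 99th percentile, capped at 1. A cell took the type whose score was at least 1.5 times the next, with at least 3 markers detected, and cardiomyocytes were split into ventricular and atrial by the same margin. No doublets were removed: the automatic threshold of the Scrublet method marked 0 cells in both libraries and so did not work. Clusters came from Leiden clustering (scanpy 1.11.5, leidenalg 0.10.2) of 2000 variable genes without the members, 30 components, 15 neighbours and resolution 1.

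Counts were summed per type and library and divided by the total (CPM). These are counts of 3′ ends, so a transcript's length does not enter, but levels of different genes were not ranked. Single-gene ratios use a pseudocount of 10 CPM and, to be counted past 1.5-fold, at least 10 CPM on average and 30 UMIs. Intervals of ratios are exact conditional binomial, those of levels exact Poisson and those of shares exact Clopper-Pearson. The ratio code was tested on simulated counts.

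The members and lists were chosen with earlier results of these data known, as were the motifs. Named were, per complex, the 2 members with the most UMIs, the 8 with the highest and 8 with the lowest cardiomyocyte over mesenchymal ratio, members past 1.5-fold between libraries (up to 4 per type and direction), and the Atp5g genes, complex II, Cycs and Cyc1. Others were singled out after their values were seen. Alternatives, also given in the closing section, changed cell minimums, the mt- limit, denominator, cell weights, doublets, cell typing and depth. No per-sample column was left unused. Values of a few genes are not reported here.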

Additional observations from a re-analysis of the deposited data

Results flagged for a closer look

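A few sums had a ratio of mutant over control on the other side of 1 from that in cardiomyocytes, where it was 0.951 for the summed members and 0.933 for the mt- genes. These differences between cell types were not tested, since each genotype is 1 library. The summed members had a ratio of 1.22 in erythroid cells. The mt- genes had ratios of 1.12 in mesenchymal, 1.33 in epicardial, 1.11 in endothelial and 1.55 in erythroid cells.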

How the results depend on the processing

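The higher member level of cardiomyocytes than of mesenchymal cells had the same direction under every alternative run, and the count of members past 1.5-fold ranged from 59 to 71 in the control and from 61 to 72 in the mutant. Counting intervals are narrow, so that small shifts fall outside them: of 178 comparisons of sums, shares and counts with their alternatives, 93 stayed within them, 81 did not and 4 reversed. The reversed ones were the mesenchymal sum with cells of 5000 to 20000 UMIs, the endothelial mt- difference with equal weight per cell and after thinning, and the erythroid sum without mt-, haemoglobin and ribosomal UMIs, and the cause was not tested. Of the genes named by rule, 3 reversed over mesenchymal cells with cells of 5000 to 20000 UMIs: Sdha, at −0.24 in the control and −0.014 in the mutant, Ndufa7, at 1.27 and 1.15, and Ndufaf2, at 0.44 and 0.40. All mt- differences are mutant minus control, in percentage points. With minimums of 500 UMIs and 200 genes, the mutant over control log2 ratio was 0.334 in erythroid cells. The mt- difference there was 0.207 points in erythroid cells. With minimums of 2000 UMIs and 500 genes, the mutant over control log2 ratio was −0.00492 in mesenchymal cells and −0.16 in epicardial cells. Mt- shares then differed by 0.456 points in mesenchymal cells and 0.422 in endothelial cells. For cardiomyocyte over mesenchymal it gave 1.21 in the control and 1.14 in the mutant. With at most 10% mt- UMIs, the mutant over control log2 ratio was −0.03675 in mesenchymal cells. Its mt- difference came to −0.297 points in cardiomyocytes, 0.0005615 in mesenchymal cells, 0.542 in epicardial cells and 0.2885 in endothelial cells. Cardiomyocytes over mesenchymal cells had a log2 ratio of 1.06 in the mutant. Without mt-, haemoglobin and ribosomal UMIs in the denominator, the mutant over control log2 ratio was −0.061 in cardiomyocytes, −0.095 in epicardial cells, −0.13 in erythroid cells and −0.223 in immune cells. The log2 ratio of cardiomyocyte over mesenchymal was 1.06 in the control and 1.05 in the mutant. With equal weight per cell, the mutant over control log2 ratio was −0.06455 in cardiomyocytes, −0.07155 in mesenchymal cells, −0.0927 in epicardial cells, −0.091 in endothelial cells, 0.092 in erythroid cells and −0.04015 in immune cells. For mt- shares it gave −0.327 points in cardiomyocytes, 0.0818 in mesenchymal cells, 0.404 in epicardial cells, −0.00612 in endothelial cells, 0.08325 in erythroid cells and −0.304 in immune cells. For cardiomyocyte over mesenchymal it gave 1.02 in the control and 1.03 in the mutant. Without the top 6% of doublet scores, the mutant over control log2 ratio was −0.06655 in cardiomyocytes, −0.13 in endothelial cells, 0.21 in erythroid cells and −0.028 in immune cells. The mt- difference there was −0.298 points in cardiomyocytes, 0.219 in mesenchymal cells, 0.577 in epicardial cells, 0.327 in endothelial cells and 0.256 in erythroid cells. Cardiomyocytes over mesenchymal cells had a log2 ratio of 1.12 in the control and 1.10 in the mutant. With Leiden clusters as types, the mutant over control log2 ratio was −0.05985 in cardiomyocytes, −0.14 in mesenchymal cells, −0.13 in epicardial cells, −0.25 in endothelial cells and −0.45 in immune cells. Mt- shares then differed by −0.257 points in cardiomyocytes, 0.153 in mesenchymal cells, 0.181 in epicardial cells, 0.169 in endothelial cells and 0.17 in erythroid cells. The log2 ratio of cardiomyocyte over mesenchymal was 1.11 in the control and 1.19 in the mutant. After thinning to 1000 UMIs, the mutant over control log2 ratio was −0.067 in cardiomyocytes, −0.078 in mesenchymal cells, −0.068 in epicardial cells, −0.10 in endothelial cells, 0.11 in erythroid cells and −0.059 in immune cells. Its mt- difference came to −0.33 points in cardiomyocytes, 0.103 in mesenchymal cells, 0.38 in epicardial cells, −0.0655 in endothelial cells, 0.114 in erythroid cells and −0.3425 in immune cells. For cardiomyocyte over mesenchymal it gave 1.02 in the control and 1.03 in the mutant. With cells of 5000 to 20000 UMIs, chosen after seeing the data, the mutant over control log2 ratio was −0.0613 in cardiomyocytes, 0.0513 in mesenchymal cells, −0.027 in epicardial cells, −0.094 in endothelial cells, 0.39 in erythroid cells and −0.016 in immune cells. For mt- shares it gave −0.179 points in cardiomyocytes, 0.9004 in mesenchymal cells, 1.76 in epicardial cells, 0.106 in endothelial cells, 0.2595 in erythroid cells and −0.656 in immune cells. Cardiomyocytes over mesenchymal cells had a log2 ratio of 2.001 in the control and 1.89 in the mutant. Leaving out the 8 barcodes kept in both libraries, no member minimum, a member minimum of 300 UMIs, a pseudocount of 1 CPM and a smaller fold left every sum, share and count they apply to within its interval or within 1.5 times the count. The mt- share has no value without mt- UMIs in the denominator. No paired analysis was possible because each genotype is 1 library. Depth limits Ndufaf7, Atp5s and Ndufa4l2, which have few UMIs outside cardiomyocytes.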
